A study of Rattus norvegicus with 8 samples.

Results

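The genes described here are interferon-stimulated genes, chosen as a list of 42 gene symbols and matched to the symbols of the authors' deposited table, where 40 of them were found among 15115 genes. Ifit1 and Xaf1 were not analysed here. The samples were livers of male Fischer 344 (F344) rats of wild type genotype, labelled as 1 year old, from a feeding study of 60 weeks. In the CDAA_PTS group the rats ate a choline-deficient amino acid defined diet (CDAA) that held pterostilbene, a dimethylated relative of resveratrol, at 1.34 g per kg of diet, and 4 livers were sequenced. In the CDAA group the rats ate that diet without the compound, and 4 livers were sequenced. Both groups ate a choline-sufficient diet for 1 week of acclimation and for the first 3 weeks of the experiment, and the CDAA_PTS rats already received pterostilbene in those 3 weeks. All 8 libraries therefore come from rats that went through choline deficiency, and livers of rats kept on the sufficient diet were not analysed here. The study took tumours, nodules or normal liver, and the labels do not say which of these a library came from. The text of the series writes CDAA+PTS for its resveratrol group too, and the sample labels, which name pterostilbene, were followed.

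Interferons are secreted proteins that cells release when they sense viral or other misplaced nucleic acid. Type I interferons act through the receptor chains Ifnar1 and Ifnar2, the kinases Jak1 and Tyk2 and a complex with the factors Stat2 and Irf9, which binds the interferon-stimulated response element (ISRE) of its target genes. Interferon gamma acts through Ifngr1 and Ifngr2, and its target genes carry the gamma-activated site (GAS). The induced proteins sense nucleic acid, block viral replication, tag proteins with the modifier Isg15 and amplify or restrain the response, and in liver both hepatocytes and immune cells make them.

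Each gene has 1 value per group and no value per rat in the authors' deposited table, so levels are given as the authors' group FPKM (fragments per kilobase of transcript, scaled to library size) without an error. The log2 ratio is CDAA_PTS over CDAA, from edgeR unless DESeq2 is named, and a gene is called where edgeR's FDR, its adjusted p over all genes, is under 0.05. Standard errors (SE) belong to the authors' DESeq2 values, which are moderated toward 0. Depth per library is unknown. Mean abundance over all libraries lay between 2.69 CPM (counts scaled to library size) for Zbp1 and 409 CPM for Ifi27, with a median of 37.4 CPM over the members and 12.9 CPM over all genes. Hepatocyte markers were abundant, with Alb at a mean of 107899 CPM in the authors' deposited table, although its FPKM is listed at 0 in both groups.

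With pterostilbene, 3 interferon-stimulated genes fell, and none rose. They were Samd9l, a factor that restricts poxvirus replication, the GTPase Gbp2 and the ubiquitin-like modifier Isg15, whose log2 ratios were -0.88, -0.68 and -0.57 in the authors' deposited table. The 3 genes are 7.5% of the 40 measured members, while 1.95% of all genes fell, 1.47% rose and 3.41% were called in either direction. All 40 members reached 1 mean CPM, and of the 13225 genes that did, 2.14% fell. These shares are not matched further for abundance. The other 37 members did not pass. Across the list, 34 of 40 had a log2 ratio below 0, or 85.0%, against 49.0% of all genes. The median log2 ratio was -0.12 over the members and 0.01 over all genes, and no member differed by 2-fold or more.

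The same 3 genes were called by each of the 3 tools whose results the authors deposited. DESeq2 calls 3 members lower, against 2.5% of the genes it tested, and Cuffdiff calls 4, against 2.7% of its tested genes, with Oasl as the fourth. By unadjusted edgeR p under 0.05, 11 of 40 members were lower, or 27.5%, against 7.86% of all genes, and 0 were higher, against 6.76% of all genes. Among genes of at least 1 mean CPM, 8.32% were lower by that threshold. These shares carry no test, since members are not replicates of a condition.

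**Figure D1:**
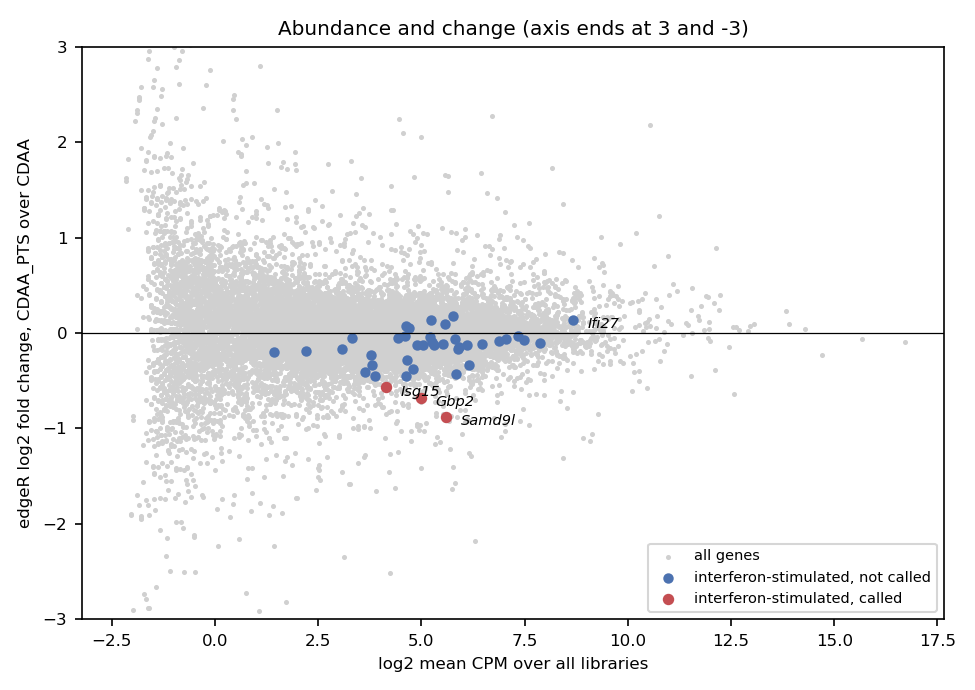
Abundance against change for all genes (grey, log2 mean CPM over all libraries on the x axis, edgeR log2 fold change of CDAA_PTS over CDAA on the y axis) and for the 40 interferon-stimulated genes (blue, or red where called). The members lie between -0.88 and 0.18 and mostly just below 0, and 62 genes of the whole table lie beyond the axis.

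Promoter windows were found for 32 of the 42 genes in RefSeq (build GRCr8), each from 250 bases before to 50 after the annotated start. Isg15, Usp18, Ifit1, Ifit2, Ddx58, Dhx58, Zbp1, Mx2, Oas2 and Rtp4 were not matched. The ISRE core searched was GAAA, any 2 bases and GAAA again, and the GAS core was TTCNNNGAA, on both strands and with overlapping matches counted. An ISRE core was present in 19 of the 32 windows, or 59.4%, against 3.92% of all 33469 windows in RefSeq, and a GAS core in 10, or 31.2%, against 8.87%. Both were present in 7 windows and neither in 10, and in Bst2 a GAS core overlaps an ISRE core. The following stretches, from 100 bases to 1 base before the start with ISRE cores in capitals, belong to the called gene Gbp2, to its neighbours Gbp4 and Gbp5, to the neighbouring pair Oas1a and Oas1b, and to the most abundant member, Ifi27.
Gbp2 (chr2:234005627-234005726, plus strand): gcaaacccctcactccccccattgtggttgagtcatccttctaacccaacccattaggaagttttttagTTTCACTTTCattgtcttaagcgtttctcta
Gbp4 (chr2:233978386-233978485, plus strand): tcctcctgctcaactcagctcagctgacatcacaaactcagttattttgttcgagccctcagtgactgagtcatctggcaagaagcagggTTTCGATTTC
Gbp5 (chr2:233910899-233910998, plus strand): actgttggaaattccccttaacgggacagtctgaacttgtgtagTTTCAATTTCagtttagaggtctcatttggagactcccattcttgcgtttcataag
Oas1a (chr12:41330366-41330465, plus strand): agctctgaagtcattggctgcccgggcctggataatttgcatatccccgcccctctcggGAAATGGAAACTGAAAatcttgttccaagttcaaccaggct
Oas1b (chr12:41395853-41395952, minus strand): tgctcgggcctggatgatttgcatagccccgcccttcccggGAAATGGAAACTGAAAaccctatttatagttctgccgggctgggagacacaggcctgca
Ifi27 (chr6:128355212-128355311, plus strand): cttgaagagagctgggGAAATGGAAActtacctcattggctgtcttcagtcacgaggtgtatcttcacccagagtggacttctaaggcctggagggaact
In Oas1a and Oas1b the capitals are 2 cores that overlap each other. Ifi27 has a further core that begins at position -169 from its start, outside the stretch shown. Gbp4, Gbp5, Oas1a and Oas1b were added for comparison after their values were seen. A match to these letters describes the window and does not show binding.

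**Figure D2:**
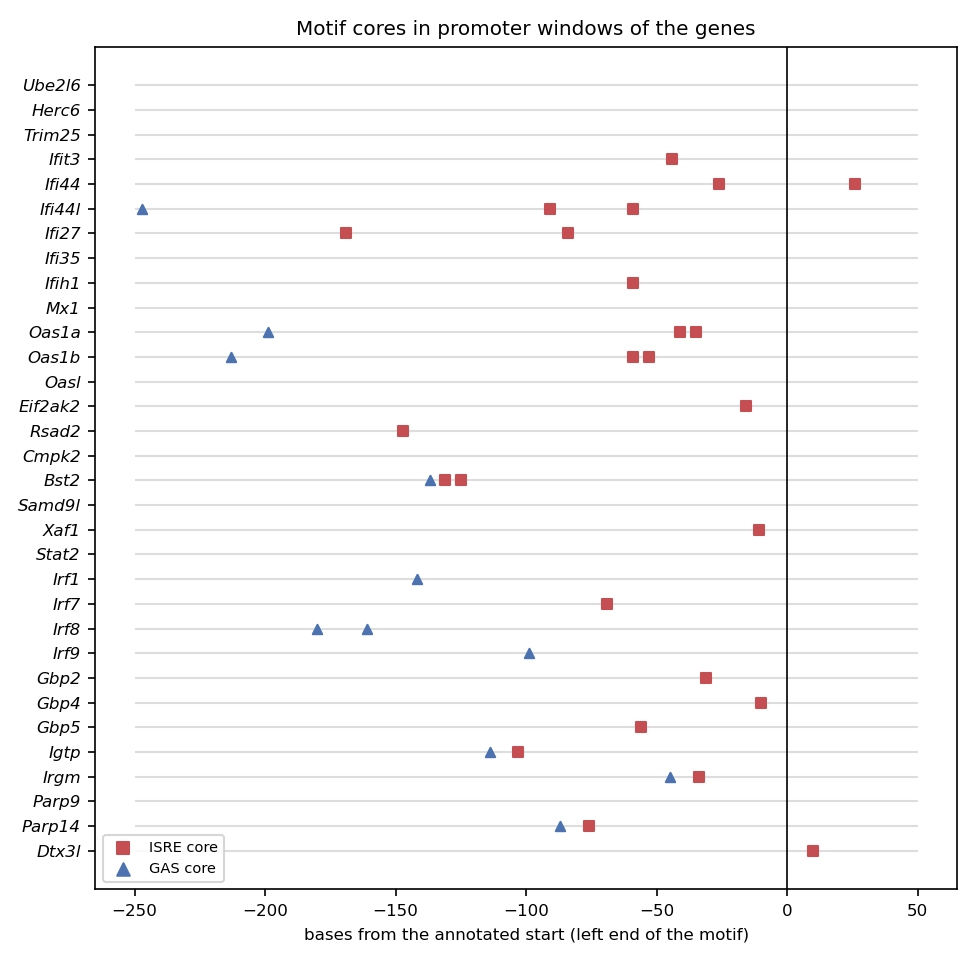
Positions of ISRE cores (red squares) and GAS cores (blue triangles) in the promoter windows of 32 genes, with the distance of the motif's left end from the annotated start in bases on the x axis. In 15 of the windows an ISRE core starts within the 100 bases before the start.

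Members with and without an ISRE core in the window had medians close to each other, and the difference was not tested. Of the 31 measured genes with a window, the 18 with a core had a median log2 ratio of -0.12, with 15 below 0, and the 13 without a core had a median of -0.14, with 11 below 0. Among the called genes, Gbp2 has a core, the window matched to Samd9l through a RefSeq synonym holds neither motif, and Isg15 was not matched.

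The antiviral effectors, which block steps of viral replication, included the member with the largest change. All 12 measured effectors stood below 0, with a median log2 ratio of -0.19, 1 that fell and 11 that did not pass. The 1 that fell is 8.33% of the effectors, against 1.95% of all genes. For Samd9l, FPKM was 6.73 in CDAA_PTS and 12.4 in CDAA, or 54.1% of the CDAA value. Its log2 ratio was -0.88 (edgeR FDR 2.1e-08) and its DESeq2 value -0.80 with an SE of 0.12, both from the authors' deposited table. Samd9l (ENSRNOG00000051922) is placed at chr4:31229912-31299132 in rn6 by that table. RefSeq (GRCr8) lists 2 protein-coding copies, Samd9l1 and Samd9l2, 2 Samd9l pseudogenes and the protein-coding gene Samd9, all on chromosome 4. Which copy the Samd9l value measures is uncertain, since reads may be shared between them.

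The 2'-5' oligoadenylate synthetases make the signal that activates an RNA-cutting enzyme, and none passed in edgeR. For Oasl, a synthetase-like protein, FPKM was 7.23 in CDAA_PTS and 9.84 in CDAA. Its log2 ratio was -0.45 (edgeR FDR 0.28), its DESeq2 value was -0.36 with an SE of 0.17, and Cuffdiff calls it with a q of 0.044, all from the authors' deposited table. For Oas1a, FPKM was 11.1 in CDAA_PTS and 13.7 in CDAA, a log2 ratio of -0.34 (edgeR FDR 0.23, authors' deposited table). Oas1b, whose window holds a like pair of overlapping ISRE cores, was scarcer, with an FPKM of 3.86 in CDAA_PTS and 4.20 in CDAA. In log2 terms this was -0.16 by edgeR (FDR 0.82) and -0.13 by DESeq2 (SE 0.17), from the authors' deposited table. Oas2 stood at -0.05 (edgeR FDR 0.98, authors' deposited table). Oas1a, Oas1b and Oas2 lie near each other on chromosome 12, and Oas1a and Oas1b are close paralogs, so reads may be shared between them.

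Of the other effectors, Cmpk2, a mitochondrial nucleotide kinase, and Rsad2 (viperin), which makes a chain-ending nucleotide, lie 14.1 kb apart on chromosome 6. For Cmpk2, FPKM was 2.99 in CDAA_PTS and 4.07 in CDAA. The log2 ratio of -0.45 (edgeR FDR 0.12) compares with -0.39 in DESeq2 (SE 0.15), from the authors' deposited table. For Rsad2, FPKM was 3.13 in CDAA_PTS and 3.65 in CDAA, a log2 ratio of -0.23 (edgeR FDR 0.65, authors' deposited table). The dynamin-like GTPase Mx1 had an FPKM of 6.69 in CDAA_PTS and 8.56 in CDAA, and its relative Mx2 had 43.0 in CDAA_PTS and 45.6 in CDAA. For Mx1 the log2 ratio was -0.37 (edgeR FDR 0.11) and the DESeq2 value -0.34 with an SE of 0.12, while Mx2 stood at -0.09 (edgeR FDR 0.93), as the authors' deposited table gives them. Bst2 (tetherin), which holds budding virus at the cell surface, was among the most expressed by FPKM, with 165 in CDAA_PTS and 177 in CDAA. Bst2, Eif2ak2 (PKR), which halts translation on sensing double-stranded RNA, and Rtp4 had log2 ratios of -0.12, -0.12 and -0.13 (edgeR FDR 0.85, 0.64 and 0.69, authors' deposited table).

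**Figure D3:**
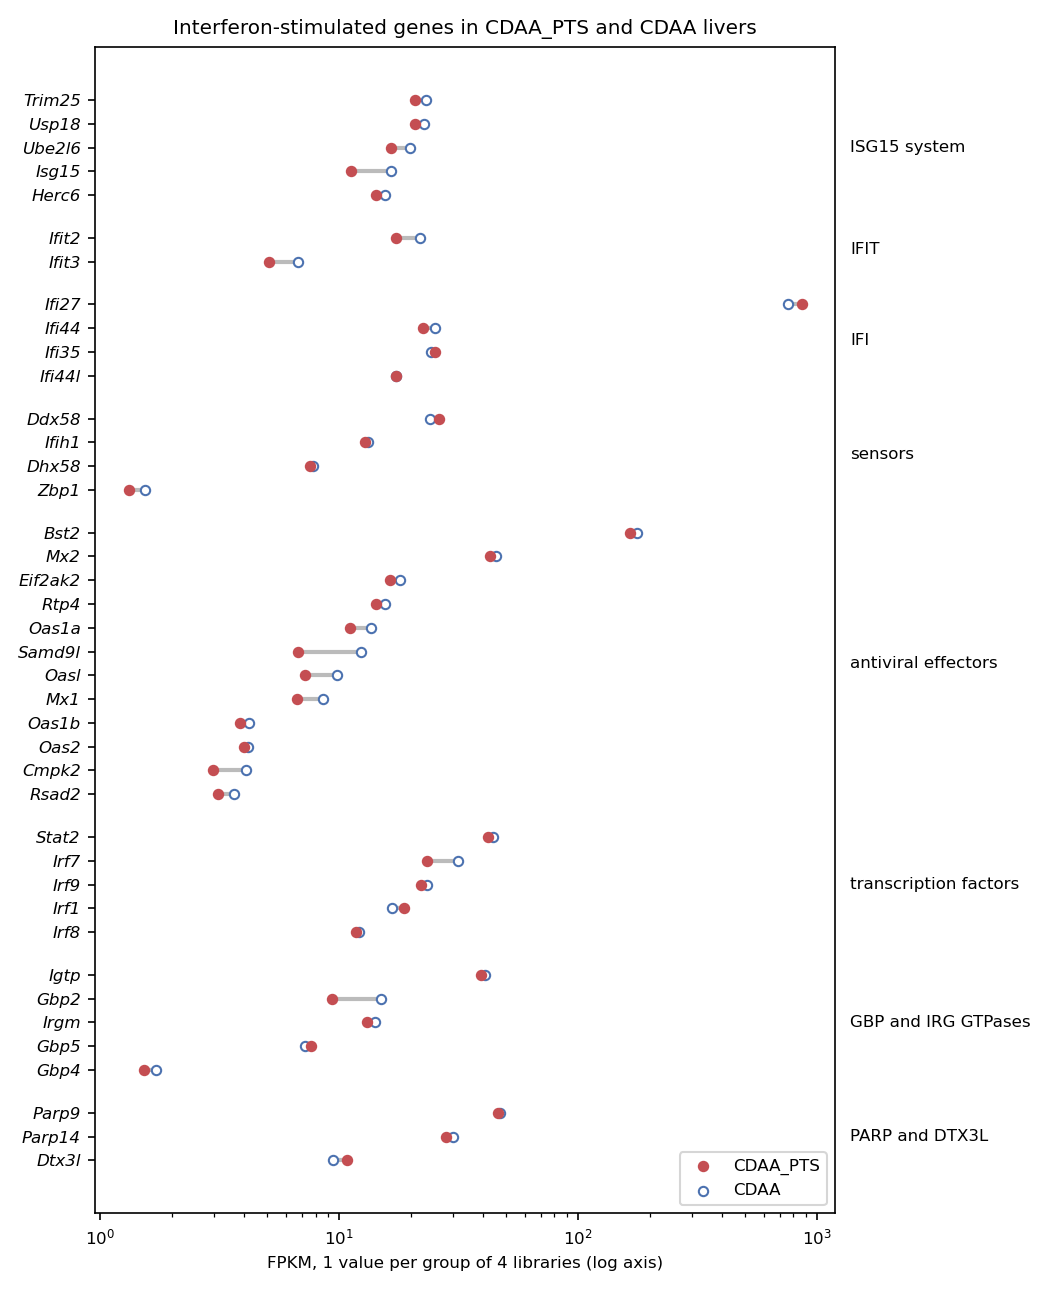
Group FPKM of the 40 interferon-stimulated genes in CDAA_PTS (filled red) and CDAA (open blue) livers, 1 value per group of 4 libraries, on a log axis and grouped by role. The widest gaps are those of Samd9l, Gbp2 and Isg15, and 33 of the 40 genes have the lower value in CDAA_PTS.

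The Isg15 system conjugates Isg15 to proteins and removes it again. All 5 members were below 0, against 49.0% of all genes, with a median log2 ratio of -0.17. Of these, 1 fell, or 20%, against 1.95% of all genes, and 4 did not pass. For Isg15 (ENSRNOG00000021802, chr5:173624309-173626248 in rn6 by the authors' deposited table), FPKM was 11.3 in CDAA_PTS and 16.6 in CDAA, or 67.8% of the CDAA value. Its log2 ratio was -0.57 (edgeR FDR 0.016) and its DESeq2 value -0.50 with an SE of 0.14, from the authors' deposited table. For Ube2l6, the conjugating enzyme, FPKM was 16.6 in CDAA_PTS and 19.9 in CDAA, a log2 ratio of -0.28 (edgeR FDR 0.33, authors' deposited table). Herc6, the main Isg15 ligase of mice, and Trim25, a ligase that acts on the RNA sensor Ddx58, had log2 ratios of -0.14 and -0.17 (edgeR FDR 0.62 and 0.51, authors' deposited table). Usp18, which removes Isg15 and restrains the type I receptor, stood at -0.12 (edgeR FDR 0.79, authors' deposited table). Whether Isg15 differed from these enzymes was not tested.

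The GTPases attack membranes around intracellular pathogens and in mice respond strongly to interferon gamma. Of the 5 measured, 1 fell, or 20%, against 1.95% of all genes, and 4 did not pass. For Gbp2 (ENSRNOG00000031743, chr2:248276708-248293784 in rn6 by the authors' deposited table), FPKM was 9.41 in CDAA_PTS and 15.0 in CDAA, or 62.6% of the CDAA value. In log2 terms this was -0.68 by edgeR (FDR 0.00089) and -0.60 by DESeq2 (SE 0.14), from the authors' deposited table. Gbp4 lies 13.5 kb away and had an FPKM of 1.53 in CDAA_PTS and 1.73 in CDAA. The log2 ratio of -0.19 (edgeR FDR 0.82) compares with -0.14 in DESeq2 (SE 0.19), from the authors' deposited table. Gbp5 lies 79.5 kb from Gbp2 and had an FPKM of 7.65 in CDAA_PTS and 7.20 in CDAA, a log2 ratio of 0.07 (edgeR FDR 0.96, authors' deposited table). An ISRE core stands within the 100 bases before the start of each of these 3 genes, as printed above. The 95% interval of the DESeq2 value ran from -0.87 to -0.34 for Gbp2 and from -0.31 to 0.41 for Gbp5, and the difference between the genes was not tested. Of the immunity-related GTPases, Igtp had an FPKM of 39.3 in CDAA_PTS and 40.8 in CDAA, with a log2 ratio of -0.06 (edgeR FDR 0.92) and -0.06 by DESeq2 (SE 0.12), from the authors' deposited table. Irgm stood at -0.12 (edgeR FDR 0.78, authors' deposited table).

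The Ifit proteins, which bind viral RNA and hinder its translation, were both below 0 without a call. For Ifit2, FPKM was 17.3 in CDAA_PTS and 21.8 in CDAA, a log2 ratio of -0.34 (edgeR FDR 0.17, authors' deposited table). For Ifit3, 5.51 kb away, FPKM was 5.12 in CDAA_PTS and 6.75 in CDAA. Its log2 ratio was -0.41 (edgeR FDR 0.12) and its DESeq2 value -0.36 with an SE of 0.14, from the authors' deposited table.

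None of the 4 measured Ifi genes passed. Ifi27, a small membrane protein, was the most abundant member, with an FPKM of 865 in CDAA_PTS and 762 in CDAA. In log2 terms this was 0.14 by edgeR (FDR 0.79) and 0.12 by DESeq2 (SE 0.14), from the authors' deposited table. It made up 52.6% of the members' summed FPKM in CDAA_PTS and 47.2% in CDAA. The sum over all members was 1644 FPKM in CDAA_PTS and 1614 FPKM in CDAA, and without Ifi27 it was 779 FPKM in CDAA_PTS and 852 FPKM in CDAA. The order of the groups in the sum therefore turns on this gene. Ifi27l2b, a gene outside the members that lies beside Ifi27 on chromosome 6, was named after its values were seen. It went the other way, with an FPKM of 817 in CDAA_PTS and 899 in CDAA. Its log2 ratio was -0.15 (edgeR FDR 0.81, authors' deposited table). Whether reads are shared between Ifi27 and Ifi27l2b was not tested. Ifi44, Ifi44l and Ifi35 had log2 ratios of -0.12, -0.03 and 0.05 (edgeR FDR 0.70, 0.98 and 0.95, authors' deposited table).

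The sensors of nucleic acid showed no called change. For Ddx58 (RIG-I), which recognises viral RNA, FPKM was 26.2 in CDAA_PTS and 24.2 in CDAA, a log2 ratio of 0.09 (edgeR FDR 0.82, authors' deposited table). For Ifih1 (MDA5), which recognises long double-stranded RNA, FPKM was 12.8 in CDAA_PTS and 13.3 in CDAA, a log2 ratio of -0.06 (edgeR FDR 0.89, authors' deposited table). Dhx58, which tunes both, stood at -0.05 (edgeR FDR 0.94, authors' deposited table). Zbp1, a sensor of left-handed nucleic acid that can start necroptosis, was the scarcest member, with an FPKM of 1.33 in CDAA_PTS and 1.55 in CDAA. The log2 ratio of -0.20 (edgeR FDR 0.84) compares with -0.14 in DESeq2 (SE 0.19), from the authors' deposited table.

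None of the 5 transcription factors passed. Irf7, which drives the later wave of type I interferon, had an FPKM of 23.5 in CDAA_PTS and 31.5 in CDAA. Its log2 ratio was -0.43 (edgeR FDR 0.12) and its DESeq2 value -0.38 with an SE of 0.14, from the authors' deposited table. The Irf7 locus overlaps that of Phrf1 there, and the labels do not state whether the libraries record strand, so reads of the overlap may be mixed. Stat2, a partner in the type I response, had an FPKM of 41.98 in CDAA_PTS and 44.3 in CDAA. In log2 terms this was -0.07 by edgeR (FDR 0.94) and -0.06 by DESeq2 (SE 0.15), from the authors' deposited table. Its partner Irf9, the early factor Irf1 and the myeloid factor Irf8 had log2 ratios of -0.09, 0.14 and -0.05 (edgeR FDR 0.79, 0.81 and 0.96, authors' deposited table).

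Parp9 and Dtx3l, which form a complex that ubiquitinates proteins, lie 1.13 kb apart on chromosome 11. For Parp9, FPKM was 46.5 in CDAA_PTS and 47.4 in CDAA, with a log2 ratio of -0.03 (edgeR FDR 0.99) and -0.02 by DESeq2 (SE 0.16), from the authors' deposited table. For Dtx3l, FPKM was 10.8 in CDAA_PTS and 9.49 in CDAA, and its log2 ratio of 0.18 (edgeR FDR 0.75, authors' deposited table) was the most positive of the 40. The ADP-ribosyltransferase Parp14 had an FPKM of 28.0 in CDAA_PTS and 30.1 in CDAA, with a log2 ratio of -0.11 (edgeR FDR 0.77) and -0.10 by DESeq2 (SE 0.09), from the authors' deposited table.

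**Figure D4:**
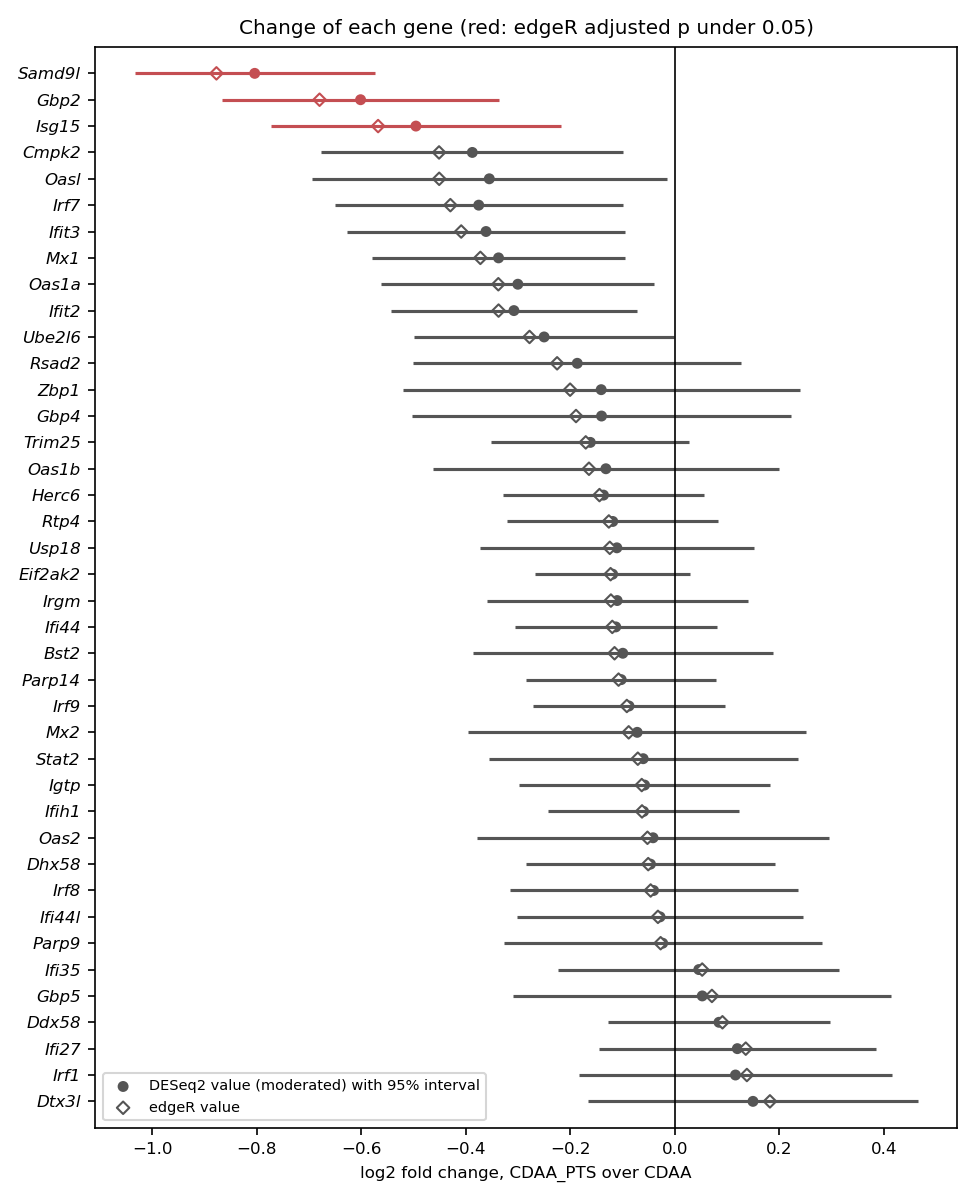
Log2 fold change of CDAA_PTS over CDAA for the 40 interferon-stimulated genes, as the authors' moderated DESeq2 value (circle) with a 95% interval of 1.96 SE and as the authors' edgeR value (diamond). The 3 called genes are red, and the intervals of the other genes run from no lower than -0.69 to no higher than 0.47.

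The SE of the DESeq2 value ran from 0.076 for Eif2ak2 to 0.194 for Zbp1, with a median of 0.136 over the 40 members. All 37 members without a call had a 95% interval inside -1 to 1, and in 27 it lay inside -0.5 to 0.5. These limits hold for moderated values only and do not bound the unmoderated change. Even the signalling inhibitor Socs1, at a mean of 0.42 CPM, had an SE of 0.18, with -0.15 by DESeq2 and -0.61 by edgeR. The interval lay wholly below 0 in 8 of the 37 (Cmpk2, Oasl, Irf7, Ifit3, Mx1, Oas1a, Ifit2 and Ube2l6) and held 0 in 29. These intervals are not adjusted for the number of genes, and how many of all genes have such an interval was not counted. Of the same 37, 8 were lower by unadjusted edgeR p under 0.05, or 21.6%, against 7.86% of all genes. Of these 37, 0 were higher, against 6.76% of all genes. Split by mean CPM, 16 of the 20 more abundant and 18 of the 20 less abundant members were below 0, with medians of -0.10 and -0.19.

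Genes that receive and relay interferon showed no called change. Of 6 receptor genes, 0 passed, with a median log2 ratio of 0.01. Over all genes 3.41% were called in either direction, so a list this short would hold few calls or none. For Ifnar1, FPKM was 16.6 in CDAA_PTS and 15.7 in CDAA, a log2 ratio of 0.07 (edgeR FDR 0.85, authors' deposited table). Ifnar2, Ifngr1 and Ifngr2 had log2 ratios of -0.01, 0.03 and -0.23 (edgeR FDR 1.0, 0.97 and 0.53, authors' deposited table). Of 5 kinases and factors that relay the signal, 0 passed. Jak1 and Tyk2 had log2 ratios of -0.09 and 0.00 (edgeR FDR 0.80 and 1.0, authors' deposited table). The 11 interferon genes listed were not analysed here.

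Of 19 measured sensors, adaptors and kinases that induce interferon, 0 passed, against 3.41% of all genes. Their median log2 ratio was 0.01. For Irf3, which switches on the interferon beta gene, FPKM was 65.1 in CDAA_PTS and 60.2 in CDAA, a log2 ratio of 0.11 (edgeR FDR 0.76, authors' deposited table). For Mavs, the mitochondrial adaptor of the RNA sensors, FPKM was 9.06 in CDAA_PTS and 7.71 in CDAA, a log2 ratio of 0.24 (edgeR FDR 0.44, authors' deposited table). Of 9 inhibitors of the signal, 0 passed and 8 were below 0, with a median of -0.16. Socs1, which blocks the receptor kinases, was scarce, with an FPKM of 0.21 in CDAA_PTS and 0.33 in CDAA. By unadjusted edgeR p under 0.05, 1 of the inducing genes was lower, or 5.26%, against 7.86% of all genes. In the other 3 lists 0 were lower, and in all 4 lists 0 were higher, against 6.76% of all genes. DESeq2 calls 0 in these 4 lists, and Cuffdiff calls 1 lower, Cish of the inhibitor list. Cish was named after its values were seen, and its FPKM was 2.35 in CDAA_PTS and 4.13 in CDAA. Its log2 ratio was -0.78 by edgeR (FDR 0.49) and -0.26 by DESeq2 (adjusted p 0.58), from the authors' deposited table.

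A wider list of 73 interferon-induced genes outside the members, of which 61 were measured, had a median log2 ratio of -0.11. Of the 61, 47 were below 0, or 77.0%, against 49.0% of all genes. In this list 2 genes fell, or 3.28%, against 1.95% of all genes, 0 rose and 59 did not pass. By unadjusted edgeR p under 0.05, 9 were lower, or 14.8%, against 7.86% of all genes. By the same threshold 1 was higher, against 6.76% of all genes. For Apol9a, FPKM was 23.8 in CDAA_PTS and 35.9 in CDAA, a log2 ratio of -0.61 (edgeR FDR 0.0014, authors' deposited table). For Cxcl10, a chemokine that draws T cells, FPKM was 3.10 in CDAA_PTS and 6.14 in CDAA. Its log2 ratio was -0.96 (edgeR FDR 0.0036) in the authors' deposited table, where Cuffdiff does not call it (q 0.17). Besides Ifi27l2b, genes named from this list after their values were seen include Ogfr and Cxcl9 and Cxcl11, which share a receptor with Cxcl10. The others are the giant ubiquitin ligase Rnf213, Samhd1, which breaks down nucleotides, and Tnfsf10 (TRAIL), a ligand that can start apoptosis. Cxcl9 and Cxcl11 had log2 ratios of -0.36 and -0.16 (edgeR FDR 0.43 and 0.88, authors' deposited table). Cxcl10 and Cxcl11 are given the same locus there (chr14:17143039-17225389 in rn6), so reads of these genes may be mixed. Rnf213 and Ogfr were called lower by DESeq2 (adjusted p 0.015 and 0.014) and not by edgeR (FDR 0.16 and 0.052) in the authors' deposited table. Samhd1 was called lower by Cuffdiff (q 0.044) and not by edgeR (log2 ratio -0.49, FDR 0.071) in the authors' deposited table. Tnfsf10 was the 1 gene higher by unadjusted p, with an FPKM of 10.4 in CDAA_PTS and 7.94 in CDAA. It had a log2 ratio of 0.39 (edgeR FDR 0.25, authors' deposited table) and a DESeq2 interval from 0.03 to 0.63.

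**Figure D5:**
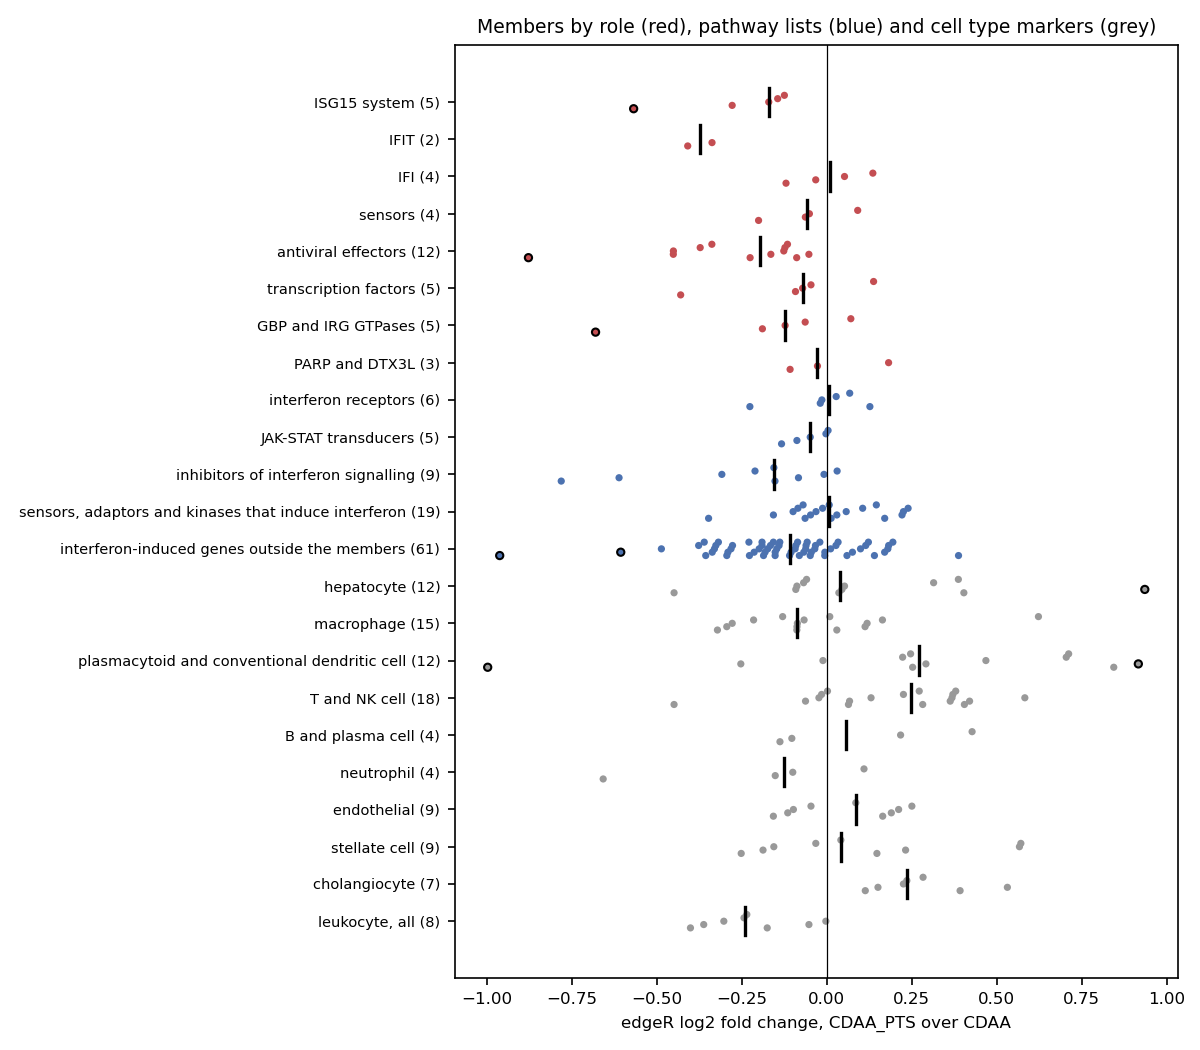
The edgeR log2 fold change of CDAA_PTS over CDAA for each measured gene of the members by role (red), of pathway lists (blue) and of cell type markers (grey), with the number of genes in brackets, the median as a black bar and called genes ringed in black. Among member roles the medians run from -0.37 (Ifit genes) to 0.01 (Ifi genes), and lists outside the members also lie below 0, such as the leukocyte markers (-0.24), the inhibitors (-0.16) and the wider induced genes (-0.11).

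Markers of immune and other liver cells had uneven values beside these genes, and their part in the result was not tested. In whole liver RNA, fewer cells of a type and less RNA per cell cannot be told apart. All 8 markers shared by leukocytes stood below 0, with a median log2 ratio of -0.24, 0 called and a summed FPKM of 77.1 in CDAA_PTS and 86.9 in CDAA. Of 15 macrophage markers, 9 were below 0 and 0 were called, with a median of -0.09 and a summed FPKM of 554 in CDAA_PTS and 581 in CDAA. The 18 T and NK cell markers had a median of 0.25, with 4 below 0, 0 called and a summed FPKM of 51.0 in CDAA_PTS and 47.1 in CDAA. Of 12 dendritic cell markers, Itgax fell and Clec9a rose, with log2 ratios of -0.997 and 0.92 (edgeR FDR 0.00024 and 0.042, authors' deposited table). The median of that list was 0.27, and its summed FPKM was 22.0 in CDAA_PTS and 20.4 in CDAA. The 4 measured neutrophil markers summed to an FPKM of 10.9 in CDAA_PTS and 11.4 in CDAA, and the 4 measured B and plasma cell markers to 11.9 in CDAA_PTS and 10.5 in CDAA. Of these immune markers, 0 are listed at 0 FPKM, but many were scarce. Median mean CPM was 2.04 for the T and NK, 3.62 for the dendritic, 2.39 for the B and plasma and 1.70 for the neutrophil markers. It was 20.9 for the leukocyte and 59.0 for the macrophage markers. The 12 hepatocyte markers had a median of 0.04, with 5 below 0 and 1 called. That was Ass1, which rose with a log2 ratio of 0.94 (edgeR FDR 0.00076, authors' deposited table). Their summed FPKM, in which Alb counts as 0, was 44719 in CDAA_PTS and 38853 in CDAA. The highest single FPKM in that list was 21593.1 in CDAA_PTS and 15747.5 in CDAA. All 7 cholangiocyte markers stood above 0, with a median of 0.24, 0 called by edgeR, 1 called higher by Cuffdiff (Sox9) and a summed FPKM of 111 in CDAA_PTS and 94.1 in CDAA. The 9 endothelial markers had a median of 0.09, with 4 below 0, 0 called and a summed FPKM of 117 in CDAA_PTS and 116 in CDAA. The 9 stellate cell markers had a median of 0.04, with 4 below 0, 0 called by edgeR, 1 called higher by Cuffdiff (Dcn) and a summed FPKM of 256 in CDAA_PTS and 248 in CDAA.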

How the data were processed

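Frozen liver was extracted with Trizol, and libraries were made with a TruSeq kit from Illumina, per the labels' protocols. FastQC, TopHat2, Cufflinks, DESeq2 and edgeR and the build rn6 are named in the submitters' processing notes, with no versions. The authors' DESeq2 block, per the file headers, holds a signal (the mean over libraries of counts divided by size factors), a moderated log2 fold change with its SE, a test score and a p-value. The authors' edgeR block holds a log2 ratio, log2 CPM, a p-value and an FDR, and the deposited Cuffdiff block holds FPKM per group, a log2 ratio, a score and a q-value. A quasi-likelihood test needs counts per library, so the authors' edgeR statistics took its place, and no count model was run here.

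List counts, medians, Benjamini-Hochberg adjustment (tested on simulated p-values) and motif matches were computed with Python 3.11.15, pandas 2.3.3 and numpy 2.4.6. Intervals are the authors' DESeq2 value ± 1.96 SE. Loci are printed as the authors' deposited table gives them. The members and lists were chosen with earlier results of these data known. By rule, members called by any of the 3 tools, the 8 with the largest change, the 5 most and the 3 least abundant by mean CPM were given in full, with called pathway genes and main signalling genes. Alternatives changed the tool, threshold, abundance filter, centring and pseudocount (1 FPKM). Rats were housed in pairs, and cages are not given per library, so p-values measure the spread between these samples. The values of 1 pathway gene are not reported here.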

Additional observations from a re-analysis of the deposited data

How the results depend on the processing

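The count of members that fell was 3 with edgeR, 3 with DESeq2, 4 with Cuffdiff, 3 over genes of at least 1 mean CPM and 3 without the member that overlaps another gene. It was 3 at an adjusted p under 0.1 and 2 under 0.01, where Isg15 was lost, and 0 members rose under each of these settings. Alternatives chosen after seeing the data gave 2 without Samd9l and 11 at an unadjusted p under 0.05. The median log2 fold change of the members lay between -0.12 and -0.11 with edgeR, DESeq2, Cuffdiff, centring on all genes, 1 FPKM added to both groups and the left-out genes. Oasl passed only in Cuffdiff, and Ifi44l changed sign there, at 0.0029 with a q of 1.0. No paired analysis was possible because the authors' deposited table holds no value per library, and for the same reason leaving out each replicate was not run. Without a value per rat, it cannot be seen whether 1 animal carries a change.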
